A study of Homo sapiens with 24 samples.

Results

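R5020, a synthetic progestin, was given for 6 hours at 10 nM to T47D-co breast cancer cells. The cells also received interferon-alpha (IFN, 20 IU/ml) for 18 hours, and the response to R5020 was read in RNA across 20156 tested genes. The sample titles give both durations but not which treatment came first. T47D is an established human luminal breast cancer line, and T47D-co is its derivative labelled as positive for progesterone receptor (PR). The labels chose the 6 libraries described here out of 24 in all. They are 3 of T47D-co with R5020 and IFN (the R5020 + IFN libraries) and 3 of T47D-co with IFN and ethanol, the vehicle of R5020 (the EtOH + IFN libraries). The other 18 libraries are T47D-co without IFN, given water in its place, and T47D-Y, a derivative labelled as lacking PR, in the same 4 treatment combinations. Each group held 3 biological replicates, and all cells grew in serum and insulin. Each response to R5020 is therefore read within 1 derivative of 1 tumour line under those supplements. Comparisons of T47D-co with T47D-Y are between derivatives of that line. No group tells a PR-dependent effect apart from other differences between the derivatives.

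Progestins bind PR, a nuclear receptor that then binds DNA and raises or lowers nearby genes. The same DNA elements are read by the glucocorticoid receptor, so both hormones share many targets. IFN binds a cell surface receptor whose JAK1 and TYK2 kinases activate STAT proteins, and these join IRF9 in a complex that binds the interferon-stimulated response element (ISRE) in the promoters of antiviral genes.

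The R5020 + IFN libraries held 15369469, 20026771 and 19335556 estimated fragments, and the EtOH + IFN libraries held 17173298, 20756311 and 15972246. Values are scaled fragments per gene, which can be compared between libraries but not between genes of different length. Across genes, libraries of the same group correlated at 0.983 to 0.986 and libraries of different groups at 0.946 to 0.951. A few measures of library composition moved with R5020. Mitochondrial transcripts made up 3.90 to 4.19% of R5020 + IFN libraries against 4.29 to 4.82% of EtOH + IFN libraries. RN7, MALAT1 and RPPH1 transcripts made up 4.42 to 4.77% against 5.16 to 5.34%. Their part in the results was not tested. Of 11 luminal markers all 11 were found and 10 had at least 10 scaled fragments in both groups, the exception being TFF1, and their sum was 73500 to 79880 with R5020 and IFN against 108700 to 113300 with EtOH and IFN. Markers of other cell types summed to 440.6 to 822 against 672.8 to 1316 scaled fragments, over 11 of 22 markers found, and PTPRC, the marker of blood cells, averaged 1.48 against 4.02. CD3E, LYZ, NKG7, VWF and CDH5 each averaged under 5.

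R5020 changed most of the measured transcriptome of IFN-treated T47D-co cells. With limma and a Benjamini-Hochberg adjusted p under 0.05, 11722 genes (58.2%) were called, 5550 of them higher (27.5% of the genes tested) and 6172 lower (30.6%). Of these, 1565 genes (7.76%) rose and 1544 (7.66%) fell at least 2-fold. The 3 R5020 + IFN libraries did not overlap the 3 EtOH + IFN libraries in 12172 genes (60.4%). The median log2 fold change over all tested genes was -0.046. The split of calls depends on the scale: 47.4% of the called genes were higher with median-of-ratios factors, whereas with total fragments as the scale 4372 were higher and 7813 lower, 35.9% higher, and the median gene stood at -0.155. Changes are therefore relative to the typical gene. In RNA from bulk cultures, fewer cells of a kind and less RNA per cell cannot be told apart. Below, "rose" and "fell" are used of genes that passed this test, and fold changes are log2 values ± SE on the log2(scaled fragments + 1) scale.

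**Figure D1:**
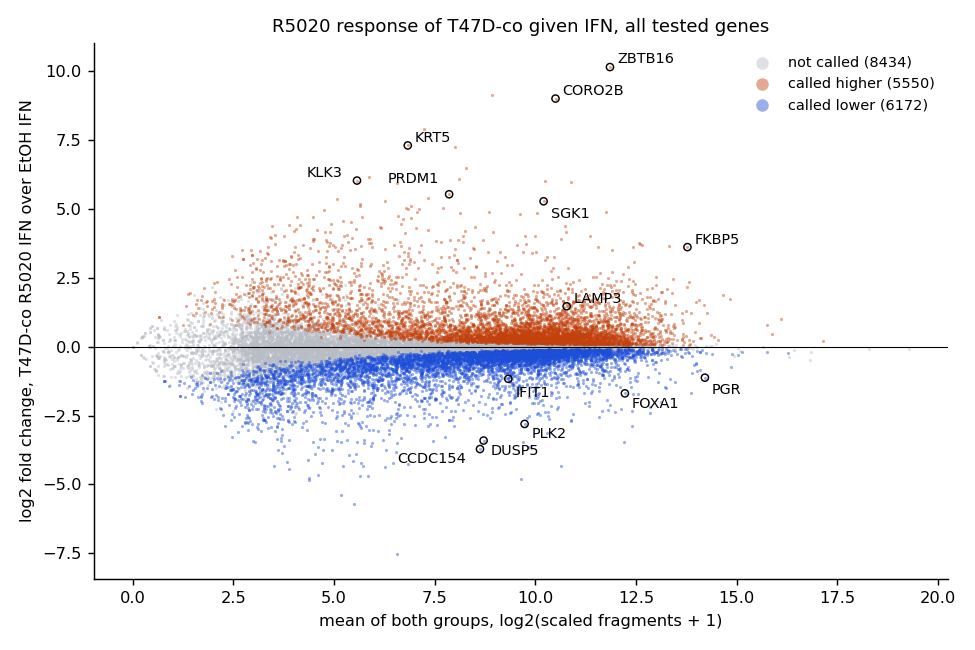
Log2 fold change of each of the 20156 tested genes in R5020 + IFN against EtOH + IFN libraries of T47D-co (y axis) by mean level in scaled fragments (x axis, log scale), with the 5550 genes called higher in red, the 6172 called lower in blue and the others in grey. CORO2B at 9.02 and ZBTB16 at 10.16 stand far above the cloud, and CCDC154 at -3.72 is the deepest of the labelled falls.

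Most shared targets of progesterone and glucocorticoid receptors rose with R5020 in the presence of IFN. Of 34 measured members, 26 rose, 25 of them 2-fold or more, and 6 fell, 2 of them 2-fold or more, with a median of 1.94 against -0.046 over all genes. Among all genes tested 27.5% rose and 30.6% fell. FKBP5, a chaperone partner of steroid receptors (hg19, chr6:35541361-35696360), held 26070, 26030 and 25650 scaled fragments in the R5020 + IFN libraries, against 2070, 2053 and 2212 in the EtOH + IFN libraries, a log2 fold change of 3.62 ± 0.04. ZBTB16, a zinc finger repressor at a locus shared with other annotated genes, held 7284, 7429 and 7424 against 8.82, 4.99 and 3.56, or 10.16 ± 0.31. SGK1, a kinase of ion transport and survival, held 2355, 2298 and 2233 against 72.8, 49 and 54.5, or 5.28 ± 0.11. In all of these the lowest R5020 + IFN library lay more than 10 times above the highest EtOH + IFN library. KLF15, a Krüppel-like factor of metabolic control, held 851, 901 and 932 with R5020 and 27.6, 29.1 and 30.8 with EtOH (4.89 ± 0.17). TIPARP, an ADP-ribosyltransferase that restrains the aryl hydrocarbon receptor, held 11890, 12250 and 11340 against 952, 927 and 864 (3.69 ± 0.05). The members above were steady between replicates, with the spread within a group small beside the gap between groups.

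Lower members of the same list also separated. STAT5A, a transcription factor of the milk and prolactin programme, held 99.5, 100.2 and 137 scaled fragments with R5020 and IFN against 7.72, 6.36 and 10.7 with EtOH and IFN (3.62 ± 0.20). HSD11B2, which inactivates cortisol, rose by 3.88 ± 0.13, glutamine synthetase GLUL by 3.67 ± 0.03, FOXO1 by 3.28 ± 0.07 and the tissue factor gene F3 by 3.24 ± 0.09. The anti-inflammatory mediator TSC22D3 rose by 1.93 ± 0.07 and the NF-kappaB inhibitor NFKBIA by 1.59 ± 0.05. Among the 6 that fell were EDN1, a vasoconstrictor peptide, at -0.85 ± 0.03, and ANGPTL4, an inhibitor of lipoprotein lipase, at -1.91 ± 0.09. At ANGPTL4 the sum over its shared locus moved less, by -0.90. The other 2 did not pass the test.

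**Figure D2:**
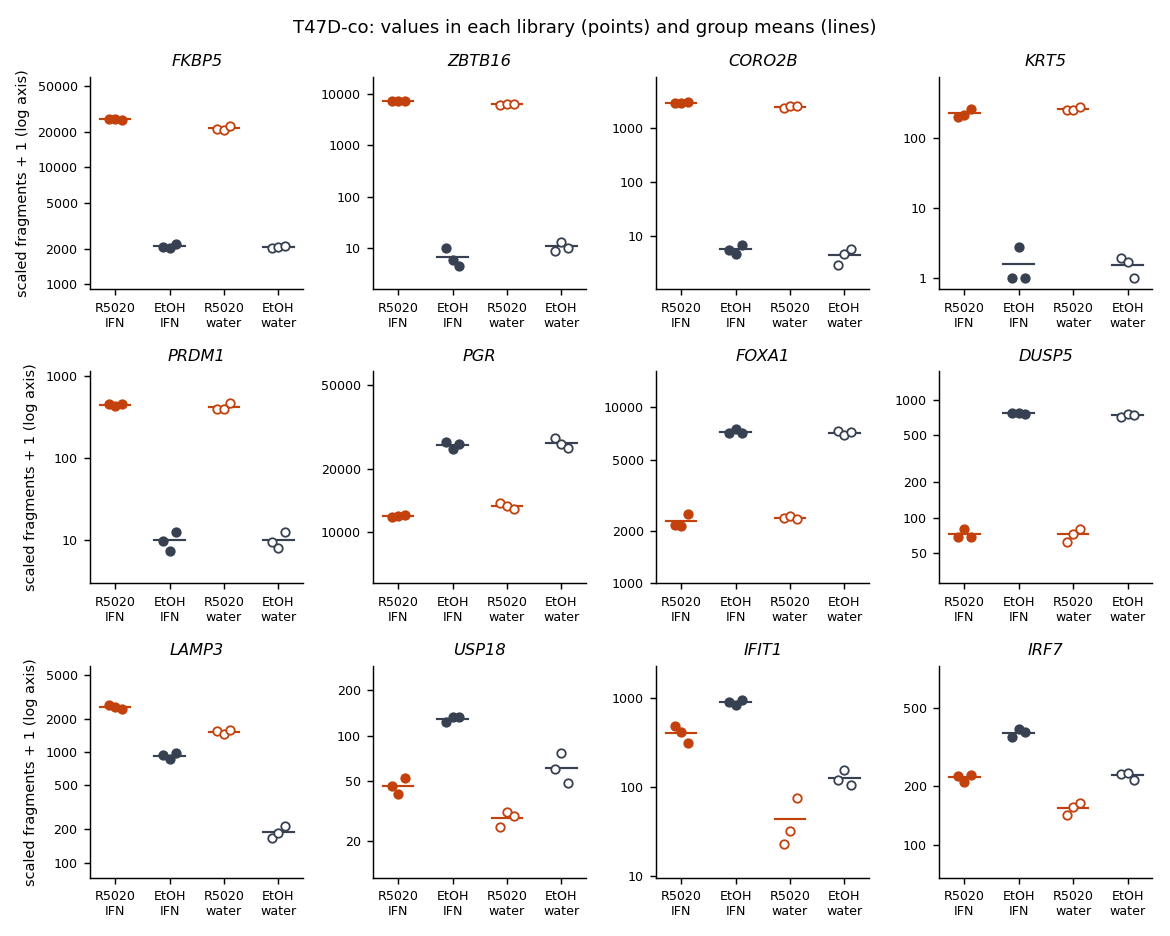
Scaled fragments plus 1 (y axis, log scale) of 12 genes in each T47D-co library, by group along the x axis in the order R5020 with IFN, EtOH with IFN, R5020 with water and EtOH with water, filled points with IFN, open points without and lines at group means. FKBP5, ZBTB16, CORO2B, KRT5 and PRDM1 stand high in all libraries given R5020, and PGR, FOXA1 and DUSP5 stand low. USP18, IFIT1 and IRF7 stand lower with R5020 than with EtOH in the presence of IFN.

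The largest changes were taken from called protein-coding genes alone at their locus. They also needed a mean of at least 50 scaled fragments in 1 group and no overlap between the groups. CORO2B, KRT5, KLK3, SEPT14 and PRDM1 were among those that rose most. CORO2B, an actin-binding coronin (hg19, chr15:68871307-69020145), held 2817, 2838 and 3006 scaled fragments in R5020 + IFN libraries against 4.41, 3.63 and 5.93 in EtOH + IFN libraries (9.02 ± 0.23; limma, Benjamini-Hochberg adjusted p = 3.75e-21). PRDM1, a repressor known as BLIMP1 (chr6:106534194-106557814), held 458, 435 and 465 against 8.82, 6.36 and 11.9 (5.54 ± 0.39). The groups lay far apart in both genes, with EtOH + IFN libraries near the detection limit. KRT5, the basal keratin (chr12:52908358-52914471), held 199, 215 and 261 scaled fragments with R5020 and IFN against 0, 1.82 and 0 with EtOH and IFN. Summed over libraries, KRT5 had 607 estimated fragments against 2, a ratio of 323 (95% counting interval 89.0 to 2673). KLK3, the gene of prostate-specific antigen and a textbook androgen target, had 247 against 2, a ratio of 131 (36.0 to 1091). These intervals cover counting error only.

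The rest of the 12 largest rises that are reported here had fitted log2 fold changes from 4.91 to 5.94. SEPT14, a septin, held 220.2, 161 and 177 scaled fragments with R5020 and IFN against 3.31, 0.908 and 2.37 with EtOH and IFN (5.94 ± 0.55). APLN, the secreted peptide apelin, held 148, 138 and 160.4 against 3.31, 2.72 and 2.37 (5.31 ± 0.62), and RHOU, a small GTPase, held 216, 230.1 and 256 against 5.51, 7.26 and 4.74 (5.12 ± 0.18). The lack of overlap between groups in these genes was a condition of their choice. PKP1, a desmosomal plakophilin, rose by 5.02 ± 0.30, C1orf95 by 5.01 ± 0.24 and the glucuronyltransferase B3GAT1 by 4.91 ± 0.22. ATP1A4, a sodium pump subunit, had 138 estimated fragments against 2, a ratio of 73.4 (95% counting interval 19.9 to 612).

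Under the same conditions the largest falls were of 2.81 to 3.72 in size on the log2 scale. DUSP5, the nuclear phosphatase that inactivates ERK (chr10:112257595-112271302) held 67.6, 78.8 and 67.5 scaled fragments with R5020 and IFN against 767, 769 and 761 with EtOH and IFN (-3.41 ± 0.07; limma, Benjamini-Hochberg adjusted p = 9.97e-23). PLK2, a polo-like kinase of centriole duplication (chr5:57749808-57756087), held 226, 211 and 199 against 1482, 1461 and 1513 (-2.81 ± 0.05). EBF1, a factor of B cell and fat cell development (chr5:158122927-158526769), held 27.9, 33.8 and 26.4 against 320.3, 301 and 345 (-3.42 ± 0.33). The EtOH + IFN libraries were at least 6 times higher in each of these genes. CCDC154, a coiled-coil gene, had the deepest fall of these genes, with 53, 49.1 and 62.3 against 729, 798 and 668 (-3.72 ± 0.19). The others of the 12 largest falls were LUZP2 (-3.50), the fucosyltransferase FUT9 (-3.46), the adhesion receptor BAI3 (-3.38), SLITRK6 (-3.06), the protocadherin PCDH17 (-3.06), NOL4 (-3.02), the potassium channel KCNJ3 (-3.01) and the netrin relative NTNG1 (-2.83).

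The genes of several steroid receptors fell. Of 23 genes listed as steroid receptors, chaperones and coregulators, 8 rose and 13 fell, against 27.5% and 30.6% over all genes. Their median was -0.13, and with total fragments as the scale 4 rose and 14 fell. PGR, the gene of the progesterone receptor (chr11:100900354-101001255), held 11810, 11860 and 12040 scaled fragments in R5020 + IFN libraries against 26820, 24900 and 26170 in EtOH + IFN libraries (-1.12 ± 0.05). NR3C1, the glucocorticoid receptor, held 671, 625 and 648 against 1198, 1250 and 1237 (-0.92 ± 0.13). Each R5020 + IFN library was below each EtOH + IFN library. The oestrogen receptor gene ESR1, at a shared locus, was called lower at -0.66 ± 0.04. CCNO, a cyclin gene and none of these kinds, was also counted in the list. It held 241, 215 and 299 against 1509, 1659 and 1378 (-2.60 ± 0.10). NCOA1, a coactivator of nuclear receptors, rose by 0.86 ± 0.03.

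Luminal and oestrogen response genes mostly fell. Of 32 measured members 24 fell and 7 rose, against 30.6% lower and 27.5% higher over all genes, with 7 down and 5 up at least 2-fold and a median of -0.45 against -0.046. FOXA1, the pioneer factor that opens chromatin for oestrogen receptor, held 2153, 2129 and 2487 scaled fragments with R5020 and IFN against 7189, 7530 and 7162 with EtOH and IFN, at a shared locus (-1.70 ± 0.04). ERBB2 (-1.19 ± 0.05), the retinoic acid receptor gene RARA (-1.31 ± 0.07) and GATA3 (-0.88 ± 0.03) were also lower. ELF3 stood at -1.47 ± 0.06, with a smaller value for its shared locus, -0.51. The keratin genes KRT8, KRT18 and KRT19 were lower by small amounts, -0.34, -0.56 and -0.24. Against this direction, the receptor tyrosine kinase gene RET rose by 2.84 ± 0.12 and GREB1, a growth regulator also raised by progestins, by 2.25 ± 0.06.

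Basal, mesenchymal and stemness genes went both ways, 11 higher and 9 lower of 21, against 27.5% and 30.6% over all genes (median 0.41). Beside KRT5, the repressor SNAI1 rose by 3.05 ± 0.27, the hyaluronan receptor CD44 by 2.03 ± 0.07, EGFR by 1.98 ± 0.03 and the stem cell factor SOX9 by 1.79 ± 0.07. TP63, the defining factor of basal cells, instead held 13.3, 6.14 and 8.44 scaled fragments with R5020 and IFN against 21, 48.1 and 34.4 with EtOH and IFN (-1.77 ± 0.23). SOX2 was lower by a log2 fold change of -1.60 ± 0.06, and the sum of its shared locus by -0.69. Over the 4 basal markers found of 6, the summed level was 767.9 to 823.7 against 703.6 to 806.3, so the groups overlapped.

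Genes of cell junctions and matrix went both ways. Of 40 measured members 13 rose and 17 fell, against 27.5% higher and 30.6% lower over all genes. The median was -0.040, against -0.046 over all genes. Gap junction and desmosome genes were among those that rose, with GJB6 at 3.90 ± 0.37 and GJB2 at 3.59 ± 0.14, and GJA1 at 2.55 ± 0.26. GJB2 held 622, 642 and 653 scaled fragments with R5020 and IFN against 41.9, 54.5 and 61.7 with EtOH and IFN. Tight junction claudins were among those that fell. CLDN1 held 1695, 1908 and 1733 against 9186, 8893 and 8742 (-2.33 ± 0.05), with no overlap, and CLDN3 and CLDN4 stood at -1.46 ± 0.07 and -0.97 ± 0.06, whereas CLDN8 rose by 1.03 ± 0.19. ITGB6, an integrin subunit that activates TGF-beta, held 122, 112 and 127 against 466, 492 and 511 (-2.02 ± 0.08). The urokinase receptor gene PLAUR rose by 2.44 ± 0.23 while the urokinase gene PLAU stood at -2.03 ± 0.22.

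Most genes of the G1 to S transition and DNA replication rose. Of 40 measured members 35 rose and 2 fell, against 27.5% higher and 30.6% lower over all genes, with a median of 0.47, and 34 or 35 rose under each of the 4 scalings tried. CCND1, the gene of cyclin D1, held 6352, 6503 and 6962 scaled fragments with R5020 and IFN against 1815, 1909 and 1899 with EtOH and IFN (1.82 ± 0.04). E2F1, the factor that drives S phase genes, held 2878, 2730 and 3230 against 1081, 1166 and 1109 (1.39 ± 0.05), and MCM10, a replication initiation factor, 3366, 3326 and 3198 against 1347, 1285 and 1343 (1.31 ± 0.05). The groups did not overlap in any of these genes. The inhibitor CDKN1C also rose, with 69, 57.3 and 74.9 against 14.3, 24.5 and 10.7 (2.03 ± 0.25), as did CDKN1B and CDKN1A by 0.57 and 0.46. CDKN2D, an inhibitor of CDK4 and CDK6, was lower at -0.97 ± 0.18. G2 and mitotic genes showed no common direction: 12 rose and 9 fell of 34, none by 2-fold, with a median of -0.0056. Here the scale decides the balance, since 6 rose and 17 fell with total fragments, and 5 rose and 14 fell with quantile normalization.

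Among growth factor receptors, ligands and adaptors, EGFR rose while ERBB2 and ERBB4 fell. Of 29 members 17 rose and 8 fell, against 27.5% higher and 30.6% lower over all genes (median 0.67). EGFR held 5126, 5310 and 5204 scaled fragments with R5020 and IFN against 1278, 1332 and 1364 with EtOH and IFN, while ERBB4 held 6304, 6691 and 6720 against 16410, 15440 and 16010 (-1.28 ± 0.05). The ligand genes EREG, BTC and TGFA rose by 1.76 ± 0.24, 1.75 ± 0.26 and 1.36 ± 0.06, whereas AREG did not pass the test at -0.15 ± 0.32. GRB10, an adaptor that restrains insulin signalling, held 16080, 15860 and 16000 against 3690, 3701 and 3798 (2.10 ± 0.03). IGF1R rose by 1.23 ± 0.03 and the insulin receptor substrates IRS1 and IRS2 by 0.95 ± 0.05 and 1.76 ± 0.19. SPRY2, an inhibitor of receptor tyrosine kinase signalling, held 168, 197 and 199 against 917, 866 and 872 (-2.23 ± 0.09) and SPRY1 stood at -1.89 ± 0.14.

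Of 16 Krüppel-like factors 10 rose, against 27.5% of all genes, and KLF3 was lower (-0.27 ± 0.04), with a median of 0.79. KLF4, a factor of epithelial differentiation, rose by 2.25 ± 0.11 and KLF5, KLF11 and KLF9 by 2.01 ± 0.05, 1.84 ± 0.06 and 1.47 ± 0.16. In the AP-1 and immediate early list 15 rose and 6 fell of 31, against 27.5% and 30.6% over all genes, with a median of 0.26. MYC rose by 1.80 ± 0.17 and the AP-1 subunit gene FOSL2 by 1.61 ± 0.05, while FOSB and IER2 were lower at -1.44 ± 0.39 and -0.85 ± 0.08. FOS did not pass the test at 0.39 ± 0.23.

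Of 30 genes of sterol and fatty acid synthesis 22 rose and 6 fell, against 27.5% higher and 30.6% lower over all genes, with a median of 0.31, and 2 changed at least 2-fold. These were the fatty acid activating enzymes ACSL1 (1.87 ± 0.03) and ACSL3 (1.45 ± 0.03). SCD, which desaturates stearate, rose by 0.79 ± 0.03 and FASN by 0.44 ± 0.08. Of 28 glycolysis and hypoxia genes 15 rose and 9 fell, against the same shares over all genes. Those that rose included the collagen hydroxylase P4HA2 (2.42 ± 0.08), NDRG1 (1.94 ± 0.10), PFKFB3 (1.17 ± 0.04) and the glucose transporter SLC2A1 (0.98 ± 0.05). GAPDH and PKM were lower by small amounts, -0.17 ± 0.03 and -0.18 ± 0.03.

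Of 21 genes of steroid and xenobiotic metabolism 13 rose, against 27.5% of all genes, and 6 fell, a share near the 30.6% of all genes (median 0.64). CYP26A1, which degrades retinoic acid, rose by 4.18 ± 0.51. AKR1C3 and AKR1C2, which reduce keto steroids, rose by 3.59 ± 0.45 and 2.33 ± 0.38, and SRD5A1, a steroid reductase, by 2.25 ± 0.05. AKR1C genes are near-identical, so the division of fragments between them is uncertain. HSD17B2 stood at 3.77 ± 0.50, but the sum of its shared locus moved by 0.99. The steroid sulphatase gene STS was lower at -0.55 ± 0.07.

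The antiviral genes were read in cells that received IFN in both groups. Promoter sequences from RefSeq (GRCh38.p14) are shown for 4 of them that were lower with R5020 and for 2 that were higher. Each is a stretch of 80 bases around a match to the ISRE on either strand, read along the gene's strand, with matches in capitals. In ISG15 and HERC5 overlapping matches run together. The stretches lie at chr1:78620259-78620338 for IFI44L, chr1:1013359-1013438 for ISG15, chr10:89392482-89392561 for IFIT1, chr14:94110603-94110682 for IFI27 and chr4:88456969-88457048 for HERC5, all on the + strand. TRIM14 is at chr9:98119223-98119302 on the - strand.
IFI44L: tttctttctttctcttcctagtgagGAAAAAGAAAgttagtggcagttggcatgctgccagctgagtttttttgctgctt
ISG15: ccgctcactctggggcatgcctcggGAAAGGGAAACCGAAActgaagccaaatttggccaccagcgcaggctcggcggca
IFIT1: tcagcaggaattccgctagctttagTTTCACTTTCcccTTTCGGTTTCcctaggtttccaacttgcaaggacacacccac
IFI27: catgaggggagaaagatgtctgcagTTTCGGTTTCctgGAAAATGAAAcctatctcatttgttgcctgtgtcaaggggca
HERC5: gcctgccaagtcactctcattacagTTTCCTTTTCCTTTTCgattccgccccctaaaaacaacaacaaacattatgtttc
TRIM14: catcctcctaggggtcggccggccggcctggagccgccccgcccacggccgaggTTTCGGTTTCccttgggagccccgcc
The letters are found in genes of both directions. A RefSeq window from 250 bases before to 50 bases after the start was at hand for 46 of the 59 antiviral genes, and 27 of these 46 held the letters, as did 996 of all 27305 windows (3.65%). With windows for 78.0% of the list, under 80%, shares between genes that rose and fell were not compared. A match is a description of the sequence and not a measured site.

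Most antiviral genes were lower with R5020 in the presence of IFN. Of 59 measured members 45 fell and 5 rose, against 30.6% lower and 27.5% higher over all genes, with 13 down and 3 up at least 2-fold and a median of -0.46 against -0.046. USP18, which removes ISG15 from proteins and desensitises the IFN receptor (chr22:18632665-18660164), held 45.1, 39.9 and 51.7 scaled fragments in R5020 + IFN libraries against 121, 132 and 133 in EtOH + IFN libraries (-1.48 ± 0.17; limma, Benjamini-Hochberg adjusted p = 3.56e-08). SAMD9L, an antiviral and growth-restraining factor, held 15.9, 18.4 and 14.8 against 44.1, 59.9 and 96 (-1.90 ± 0.33). TRIM25, the ubiquitin ligase that activates RIG-I, held 1482, 1581 and 1552 against 3481, 3447 and 3426 at a shared locus (-1.17 ± 0.04). Every R5020 + IFN library lay below every EtOH + IFN library in these genes, with SAMD9L the most variable among EtOH + IFN libraries. IFIT1, which binds viral RNA caps, held 474, 409 and 312 against 887, 818 and 947 (-1.17 ± 0.30). IFIT1, IFIT2 and IFIT3 share a locus whose sum moved by -0.71, so how the fall divides between them is uncertain. IFI44L held 5.3, 7.16 and 2.11 against 19.9, 12.7 and 16.6 (-1.66 ± 0.36), at low levels in both groups. RIG-I itself, DDX58, stood at -0.86 ± 0.08 and OASL at -1.40 ± 0.24.

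IFI6, MX1, ISG15 and IFI27 had smaller fold changes than the genes above, and the differences in size were not tested. IFI6, an inhibitor of viral replication complexes and of apoptosis, held 2376, 2461 and 2504 scaled fragments with R5020 and IFN against 3369, 3522 and 3180 with EtOH and IFN (-0.45 ± 0.09). MX1, a GTPase that blocks viral particles, held 1998, 1909 and 1898 against 2458, 2445 and 2630 (-0.38 ± 0.14), ISG15, the ubiquitin-like modifier, 438, 368 and 413 against 473, 545 and 547 (-0.36 ± 0.15), and IFI27 166, 161 and 180.4 against 223, 254 and 248 (-0.51 ± 0.22). The groups did not overlap in any of the 4, yet the calls of MX1, ISG15 and IFI27 sit near the threshold. Their Benjamini-Hochberg adjusted p in limma was 0.0216, 0.0449 and 0.0442. Calls ended when a single library was left out: MX1 without EtOH + IFN replicate 3 or R5020 + IFN replicates 2 or 3 (adjusted p 0.0514 to 0.0669), ISG15 without replicates 2 or 3 of either group (0.0714 to 0.157), and IFI27 without any 1 of the 6 libraries (0.0532 to 0.108). With all libraries kept, the calls of ISG15 and IFI27 also ended in other settings. These were the deposited scale, no filter, quantile normalization and a replicate block (limma, adjusted p 0.0512 to 0.0952). OAS1, which makes the activator of RNase L, held 147, 157 and 144 against 249.5, 229 and 330.1 (-0.83 ± 0.31), and its locus, shared with OAS2 and OAS3, moved by -0.35. Its call ended without EtOH + IFN replicate 3 or R5020 + IFN replicates 1 or 3 (limma, adjusted p 0.0569 to 0.108), and with no filter (adjusted p = 0.0513 in limma). IFI44 held 33.2, 24.6 and 11.6 against 60.7, 51.8 and 61.7, a call that ended without R5020 + IFN replicate 3 (limma, adjusted p = 0.0519). BST2, the tether of enveloped viruses, fell to 3275 ± 48.7 against 4135 ± 110.5 (mean ± SD, n = 3 each).

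**Figure D3:**
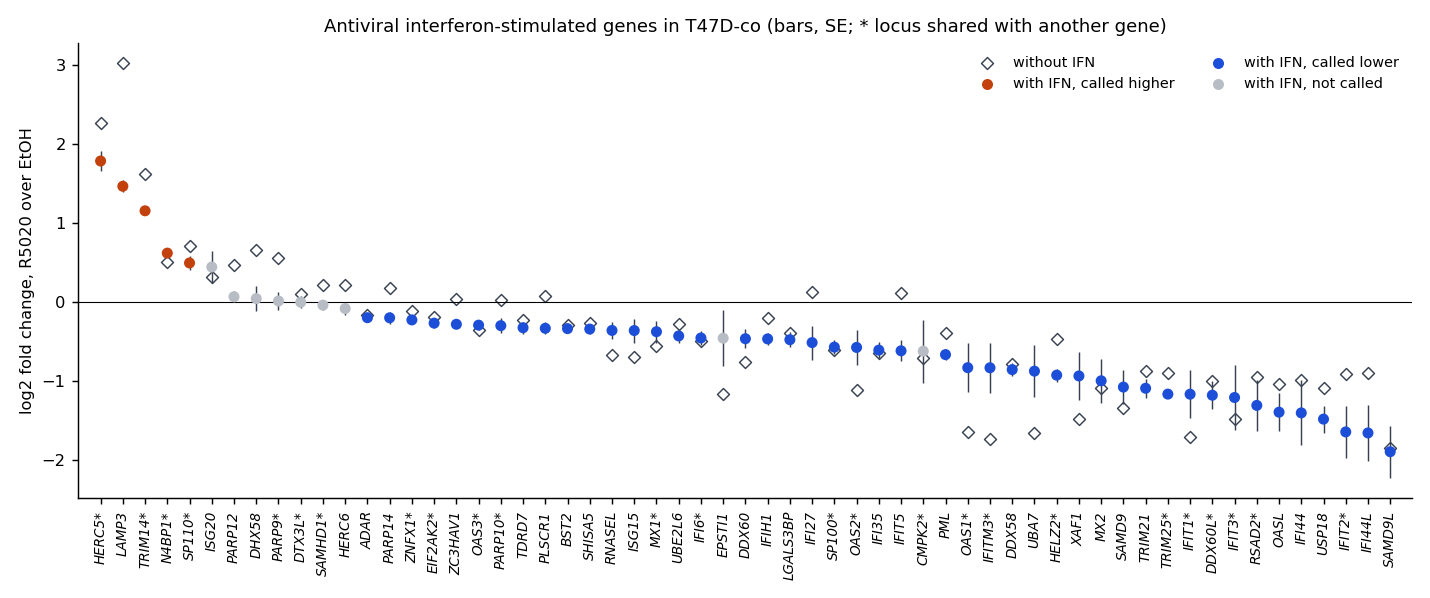
Log2 fold change with R5020 of 59 antiviral interferon-stimulated genes in T47D-co, sorted from highest to lowest along the x axis, with points and SE bars for the response with IFN, diamonds for the response without IFN, and asterisks at genes of shared loci. HERC5, LAMP3, TRIM14, N4BP1 and SP110 are called higher with IFN and 45 genes lower.

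A few antiviral genes rose instead. HERC5, the ligase that attaches ISG15 to proteins, held 375, 330.4 and 359.8 scaled fragments with R5020 and IFN against 107, 87.2 and 114 with EtOH and IFN (1.79 ± 0.12). LAMP3, a lysosomal membrane protein raised by IFN and in maturing dendritic cells (chr3:182840000-182881627), held 2655, 2587 and 2477 against 936, 876 and 977 (1.47 ± 0.08), and TRIM14, an adaptor of antiviral signalling, 1810, 1725 and 1869 against 784, 808 and 829.9 (1.16 ± 0.05). None of the groups overlapped. The shared locus of TRIM14 moved by 0.64. N4BP1 and SP110 were the other 2 called higher, at 0.62 ± 0.04 and 0.50 ± 0.08, but the shared locus of SP110 moved by only -0.01. HERC6 and PARP12 were among the 9 that did not pass the test, with values of -0.08 ± 0.08 and 0.07 ± 0.07.

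A list chosen outside these libraries also had more genes lower than higher. Its overlap with the antiviral list was not counted, so the lists cannot be taken as independent. IFN raised 85 genes at least 2-fold in T47D-Y cells given EtOH. In T47D-co with IFN, R5020 lowered 53 of these 85 and raised 6, 19 of them falling at least 2-fold, with a median of -0.57. Over all genes 30.6% were lower, 7.66% by at least 2-fold, with a median of -0.046. Among the 47 that are alone at their locus, 30 fell and 2 rose (median -0.62). The same 85 genes had 46 lower and 14 higher in T47D-co without IFN (median -0.48).

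The signalling chain above these genes moved unevenly. Of 36 members 13 were higher and 15 lower, against 27.5% higher and 30.6% lower over all genes. Among receptors and kinases, IFNAR1, a subunit of the IFN-alpha receptor, stood at -0.13 ± 0.05, a call that ended without EtOH + IFN replicate 3 or R5020 + IFN replicates 1 or 3, whereas JAK1 and JAK2, at shared loci, rose by 0.70 ± 0.03 and 1.02 ± 0.05. STAT2 held 1019, 1007 and 946 scaled fragments with R5020 and IFN against 1190, 1186 and 1180 with EtOH and IFN (-0.26 ± 0.04), and the groups did not overlap. IRF9 could be read only as a merged entry with its neighbour RNF31, which stood at -0.56 ± 0.07. STAT3 rose by 1.15 ± 0.03, STAT5B by 1.19 ± 0.06 and STAT5A far more, and STAT6 was lower at -0.68 ± 0.05. IRF7, which amplifies the IFN response, held 226, 209.7 and 227 against 357, 393 and 376 (-0.76 ± 0.10), and IRF1, an activator induced mainly by interferon-gamma, held 145, 129 and 129 against 83.8, 73.6 and 74.7 (0.79 ± 0.13). These moved in opposite directions with no overlap between groups. TLR3, a sensor of double-stranded RNA, was lower at -2.13 ± 0.39. Of the feedback inhibitors SOCS2 rose by 2.45 ± 0.48, SOCS3 did not pass the test at 0.43 ± 0.33, and CISH stood at -2.34 ± 0.14 with its shared locus at -0.75.

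Of 23 genes listed as chemokines and immune ligands, which include the receptor gene IL6ST, 11 fell and 2 rose. The shares over all genes were 30.6% lower and 27.5% higher, and the list's median was -0.84. TNFSF10, the death ligand TRAIL, held 53, 57.3 and 39.1 scaled fragments with R5020 and IFN against 266, 225 and 238 with EtOH and IFN (-2.28 ± 0.14). IL15, a growth factor of T and NK cells, held 17.2, 15.3 and 14.8 against 67.3, 64.5 and 67.6 (-2.01 ± 0.20), and the chemokine gene CCL28 stood at -1.79 ± 0.19. CCL2, a monocyte attractant, had 3 estimated fragments against 41 over the 3 libraries of each group, a ratio of 0.0779 (95% counting interval 0.0154 to 0.244). The 2 that rose were IL6ST and CXCL12. IL6ST, the signalling subunit of the IL-6 receptor, held 8281, 8216 and 8378 against 1725, 1892 and 1730 (2.22 ± 0.08), and CXCL12, a chemokine that oestrogen also raises, held 450.2, 469.9 and 455 against 142, 117 and 118 (1.86 ± 0.19). The groups did not overlap in these genes. In antigen processing 3 rose and 6 fell of 14, against 27.5% higher and 30.6% lower over all genes. NLRC5, the activator of MHC class I genes, was lower at -1.15 ± 0.22, and HLA-B did not pass the test at -0.28 ± 0.35.

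Survival genes moved in both directions. Of 30 cell death genes 16 rose and 7 fell, against 27.5% higher and 30.6% lower over all genes (median 0.18). BCL2L11, the pro-apoptotic gene of BIM, held 2692, 2515 and 2485 scaled fragments with R5020 and IFN against 419, 439 and 464 with EtOH and IFN (2.54 ± 0.05), and BCL2 held 25.2, 24.6 and 26.4 against 116, 86.3 and 88.9 (-1.88 ± 0.16). BCL2L1 instead rose by 1.02 ± 0.03, and the TRAIL receptor genes TNFRSF10A and TNFRSF10B by 1.69 ± 0.06 and 1.22 ± 0.04, while their ligand gene TNFSF10 was lower. In the NF-kappaB list 9 rose and 8 fell of 21, against the same shares over all genes. The inhibitor genes NFKBIA, TNFAIP3 (1.44 ± 0.11) and NFKBIE (0.75 ± 0.09) rose. The coactivator BCL3 held 121, 129 and 138 against 714, 739 and 652 (-2.43 ± 0.08), and the subunit genes NFKB1, NFKB2 and RELB were lower at -0.35 ± 0.04, -0.63 ± 0.08 and -1.23 ± 0.12.

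**Figure D4:**
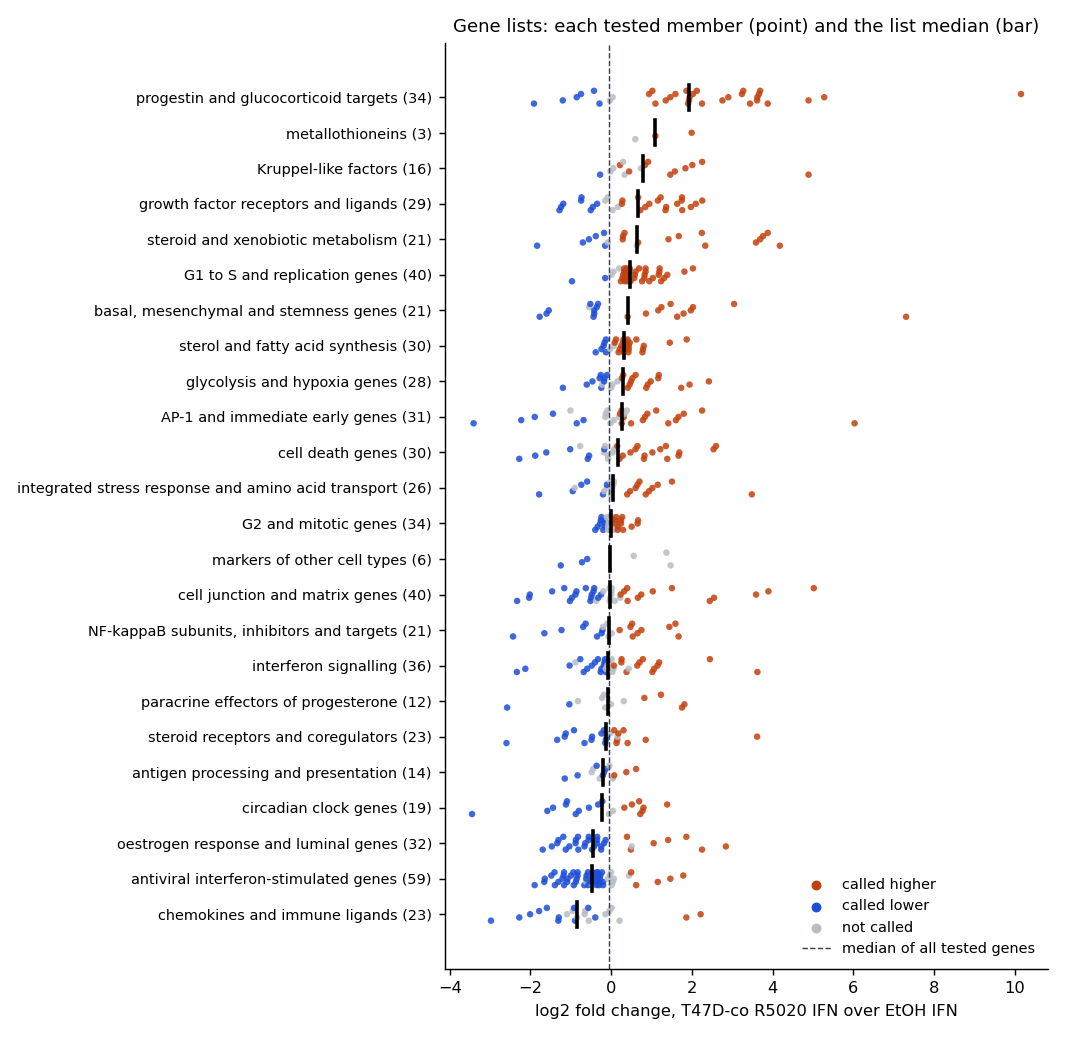
Log2 fold change with R5020 in T47D-co with IFN (x axis) of the measured members of 24 gene lists, 1 row per list, with 1 point per member, a bar at the list's median and a dashed line at the median of all tested genes, -0.046. The progestin list has its median at 1.94, the antiviral list at -0.46 and the G1 to S list at 0.47.

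The response of the same line without IFN was close to this one. R5020 changed 11396 genes (56.5%) of T47D-co given water, 5357 higher (26.6%) and 6039 lower (30.0%). Across the 20156 tested genes the log2 fold changes with and without IFN correlated at 0.875, from libraries that neither comparison shares, and genes are not independent replicates. Of the 3109 genes changed at least 2-fold with IFN, 2349 were also changed at least 2-fold in the same direction without it, which is 75.6% of that list and 76.9% of the 3056 genes of the other. In the antiviral list 45 were lower and 5 higher with IFN, against 40 lower and 11 higher without it. The medians were -0.46 and -0.47.

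The difference between the responses with and without IFN was tested directly and called 203 genes (1.01%), 176 positive (0.873%) and 27 negative (0.134%). In 117 of the 203 a called rise with IFN exceeded the response without it. In 43 the fall was smaller with IFN, in 19 it was larger, and in 4 the rise was smaller. In the other 20 the response with IFN was not called. This count depends on the scale, on the use of a replicate block and on single libraries. It was 67 (49 positive) with quantile normalization, 74 (55 positive) with total fragments and 33 (26 positive) with a replicate block. Without EtOH + IFN replicates 1, 2 or 3 it was 124, 75 or 416, and without R5020 + IFN replicates 1, 2 or 3 it was 130, 83 or 321. Without R5020 + water replicates 1 or 2 it was 83 or 98, and without EtOH + water replicates 1 or 2 it was 101 or 135. LAMP3 had the most negative value. It held 2655, 2587 and 2477 scaled fragments with R5020 against 936, 876 and 977 with EtOH in the presence of IFN, and 1545, 1478 and 1591 against 166, 186 and 214 in its absence. The rise with R5020 was thus 1.47 ± 0.08 with IFN and 3.02 ± 0.08 without, a difference of -1.56 ± 0.11 (limma, Benjamini-Hochberg adjusted p = 1.86e-09). TRIM14 was higher in both states, with a difference of -0.47 ± 0.07. Of the antiviral list 5 genes differed, all negative. Besides LAMP3 and TRIM14 these were PARP12 (-0.40 ± 0.10), ZC3HAV1 (-0.32 ± 0.06) and TRIM25 (-0.27 ± 0.05), whose calls did not hold in every setting tried.

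Positive differences included that of CYP1A1. CYP1A1, an enzyme induced through the aryl hydrocarbon receptor (chr15:75011882-75017951), held 39.8, 35.8 and 40.1 scaled fragments with R5020 against 32, 33.6 and 26.1 with EtOH in the presence of IFN, and 92.1, 106 and 84.5 against 142, 141 and 136 in its absence. The response was 0.33 ± 0.12 with IFN and -0.57 ± 0.12 without, a difference of 0.90 ± 0.16 (limma, Benjamini-Hochberg adjusted p = 0.00665). Of the 203 genes, 12 including CYP1A1 were called in opposite directions in the 2 states. The call of its difference was lost with voom weights (limma, adjusted p = 0.117) and without the 4 libraries whose mitochondrial share was under 2%, of which EtOH + water replicate 2 is of T47D-co (limma, adjusted p = 0.0528). Its response with IFN was not called without EtOH + IFN replicate 3, with total fragments, with only the 6 libraries or with voom weights (limma, adjusted p 0.0977 to 0.286). CYP1B1, singled out after its values were seen, held 4055, 4143 and 4020 against 1256, 1309 and 1257 with IFN and 5274, 5145 and 5016 against 3189, 2928 and 2932 without, at a shared locus. Its difference was 0.91 ± 0.05. ST3GAL1, a sialyltransferase, rose in both states, with a difference of 0.42 ± 0.06. It held 9851, 9867 and 9640 with R5020 and 2931, 2988 and 2891 with EtOH in IFN, against 9656, 10110 and 10070 and 4081, 4077 and 3853 without IFN, so the groups given EtOH differed more than those given R5020. CTNND2, a catenin, stood at -2.14 ± 0.10 with IFN and -1.22 ± 0.10 without. The call of that difference, -0.93 ± 0.14, was lost with voom weights (limma, adjusted p = 0.30).

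T47D-Y cells, labelled as lacking PR, changed little under the same treatment. R5020 with IFN called 60 of 20156 genes (0.298%) there, 53 higher (0.263%) and 7 lower (0.0347%), and 1202 had an unadjusted p under 0.05. PGR was far lower in that line, at 476, 468 and 418 scaled fragments with R5020 and IFN and 642, 651 and 676 with EtOH and IFN, but it was not at 0. The response differed between T47D-co and T47D-Y in 9279 genes (46.0%), 4625 positive (22.9%) and 4654 negative (23.1%). Of the 3109 genes changed at least 2-fold in T47D-co with IFN, 2635 passed this test of the difference and 44 were called in the same direction in T47D-Y. Of the progestin list 8 of 34 rose in T47D-Y too. FKBP5 rose there by 0.76 ± 0.04, against 3.62 ± 0.04 in T47D-co, ZBTB16 by 2.93 ± 0.31 and CORO2B by 2.19 ± 0.23. Of the antiviral list none of 59 was called in T47D-Y with limma (1 had an unadjusted p under 0.05), and the difference between the lines was called in 41, 36 negative and 5 positive. The largest of these by size were SAMD9L (-1.90 ± 0.47) and HERC5 (1.59 ± 0.18) at the 2 ends.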

How the data were processed

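RNA of 24 libraries was extracted with Trizol and sequenced on an Illumina MiSeq, per the labels' protocols, and the submitters' processing notes name TopHat2 2.0.12, Cufflinks 2.2.1 and the build GRCh37 (hg19). The labels gave the groups and replicate numbers. The deposited table holds 25541 entries with a signal per library whose unit is not given per the file headers. For genes alone at their locus, 98.3 to 99.2% of values were whole multiples of 1 step per library, to a tolerance of 0.05 of a step, against 63.2 to 66.5% over all entries, so the values were read as estimated fragments divided by a factor set within each block of 6 libraries, and no test for whole counts was run. The factors were undone and median-of-ratios factors over all 24 libraries were used (14197 genes with a mean of at least 50). Of the entries, 22030 have a single symbol, 12589 are alone at their locus, 3511 are merged (2122 named by their 1 protein-coding gene) and 31 under repeated names were left out. Where genes share a locus the sum over it is given if it differs.

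The 20156 entries that reached 10 scaled fragments in 3 or more libraries were fitted as log2(value + 1) in R 4.3.3 with limma 3.58.1, as 8 group means over all 24 libraries with a variance trend (16 residual and 8.05 prior degrees of freedom), after parsing in Python 3.11.15. Calls have a two-sided Benjamini-Hochberg adjusted p under 0.05 over all 20156. The script was tested on simulated data. An exact permutation test of 3 against 3 cannot go below p = 0.1 and was not used. Members and lists were chosen with earlier results of these data known. The genes named are the 12 largest rises and 12 largest falls (protein-coding, alone at their locus, called, a mean of at least 50 in 1 group, no overlap), up to 5 called members per list by size of change, 17 fixed genes and up to 6 per direction of each interaction; other list members were named as examples after their values were seen. A few genes that meet these conditions are not reported here. Alternatives changed the scale, filter, pseudocount, weights, replicate block or libraries used.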

Additional observations from a re-analysis of the deposited data

Results flagged for a closer look

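Responses of T47D-co to R5020 that differed between the states with and without IFN, by limma's test of the difference, are listed first, as the log2 response with IFN minus that without. Positive values were found for CYP1B1 (0.91), CYP1A1 (0.90), SYTL2 (0.56), ST3GAL1 (0.42), CALD1 (0.41), KLF12 (0.38) and GPR137C (0.38). Negative values were found for LAMP3 (-1.56), CTNND2 (-0.93), TRIM14 (-0.47), SLC2A6 (-0.41), PARP12 (-0.40), FAM127A (-0.33), ZC3HAV1 (-0.32) and TRIM25 (-0.27). SYTL2, a synaptotagmin-like protein of vesicle traffic, held 194, 180 and 197 scaled fragments with R5020 against 458, 482 and 499 with EtOH in IFN, and 182, 192 and 174 against 606, 760.2 and 684 without IFN, so it was lower with R5020 in both states. CALD1, the actin-binding caldesmon, was higher in both, at 1.66 ± 0.05 with IFN and 1.25 ± 0.05 without. SLC2A6, a glucose transporter relative, was lower in both, at -1.11 ± 0.07 and -0.71 ± 0.07. Calls of the difference for LAMP3, ST3GAL1, CALD1, TRIM14 and CYP1B1 held in every setting tried. Those of FAM127A, KLF12, PARP12 and SLC2A6 ended without single libraries of each of the 4 groups. That of SYTL2 ended with voom weights (limma, adjusted p = 0.0929). That of GPR137C ended without EtOH + IFN replicate 2 (limma, adjusted p = 0.0533), and that of TRIM25 without R5020 + water replicate 2 (adjusted p = 0.0504 in limma). The calls of SYTL2, GPR137C and TRIM25 also ended with a replicate block and without the libraries of low mitochondrial share.

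The second set is of responses with IFN that differed between T47D-co and T47D-Y, as the log2 response of T47D-co minus that of T47D-Y. Among genes alone at their locus the positive ones are CORO2B (6.83), KRT5 (6.48), KLK3 (6.06), PKP1 (5.62) and PRDM1 (5.47). The negative ones are EBF1 (-3.71), FUT9 (-3.57), DUSP5 (-3.50), CCDC154 (-3.46), BAI3 (-3.27) and SLITRK6 (-3.26). The values of KRT5 and KLK3 depend on the pseudocount, since the EtOH + IFN libraries hold almost none of either. Among antiviral genes the positive ones are HERC5 (1.59), LAMP3 (1.44), TRIM14 (1.13), N4BP1 (0.52) and SP110 (0.38), and the negative ones are SAMD9L (-1.90), IFIT2 (-1.66), IFI44L (-1.56), OASL (-1.53), IFI44 (-1.46) and USP18 (-1.41). In T47D-Y the responses of DUSP5 and USP18 were 0.09 ± 0.07 and -0.07 ± 0.17, neither called. The call of IFI44L ended without R5020 + IFN replicate 3 of T47D-co (limma, adjusted p = 0.0526), that of SP110 with total fragments as the scale (limma, adjusted p = 0.0663), and that of IFI44 in 15 settings, among them leaving out any 1 of the 6 T47D-Y libraries.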

How the results depend on the processing

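The R5020 response of T47D-co with IFN was refitted under 18 alternatives. Its called genes numbered 10887 to 11313 when 1 library was left out, 5207 to 5377 higher and 5610 to 5936 lower. The count at least 2-fold lower was 978 with a filter at 50 scaled fragments, which tests fewer genes. With 1 library left out, 35 to 43 antiviral genes were lower and 5 to 6 higher, 44 to 51 of the 85 genes IFN raised in T47D-Y were lower, 22 to 24 luminal genes were lower, 35 to 36 G1 to S genes and 26 progestin targets were higher. These list counts were added after seeing the data.

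Genes differing between the states with and without IFN were the least stable count, 75 to 416 with 1 library left out (61 to 330 positive, 14 to 92 negative). They numbered 67 with quantile normalization (49 positive), 74 with total fragments (55 positive), and 63 without the libraries of low mitochondrial share (49 positive, 14 negative). On the deposited scale 110 were positive, and with a filter at 50 the negative ones were 43. The cause was not tested. Calls of the difference between lines numbered 8747 to 9196 with 1 library left out. Same-numbered replicates deviated together no more than others (correlation -0.031 to 0.022, against -0.056 to 0.048 for different numbers), so the numbers were not taken to pair samples. With a replicate block the response held 11280 calls and the difference between IFN states 33 (26 positive, 7 negative).

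Of the genes named, the responses of PARP12 (-0.0432) and FAM127A (-0.096) turned negative with total fragments, neither called there. That of KLF12, not called, was -0.040 to 0.0093 with 1 library left out and positive without EtOH + IFN replicate 1. Over all named genes, 3866 repeats of a response kept direction and side of the threshold and 54 lost the call, in 10 genes. Levels under 10 scaled fragments, as for KRT5 with EtOH, limit precision by counting error.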

Other observations

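Clock genes, which time daily rhythms, moved with R5020 in IFN-treated T47D-co cells in both directions. Of 19 members 7 were higher and 10 lower, against 27.5% and 30.6% over all genes, with a median of -0.22. RORA, a nuclear receptor that activates ARNTL, rose by 1.39 ± 0.05, and PER2 by 0.72 ± 0.07. The output factor TEF held 76.9, 100.2 and 99.2 scaled fragments in R5020 + IFN libraries against 311, 272 and 248 in EtOH + IFN libraries (-1.58 ± 0.11), with no overlap, and ARNTL stood at -0.80 ± 0.06. DBP was called lower at -1.44 ± 0.13, but the sum of its shared locus moved by -0.33. BHLHE41 stood at -3.45 ± 0.26 while its shared locus moved by 0.83 in the other direction, so its own change is uncertain. In the integrated stress response and amino acid transport list 11 rose and 6 fell of 26, against the same shares over all genes. The list median of 0.038 turned to -0.073 with total fragments as the scale. CHAC1, which degrades glutathione, rose by 3.49 ± 0.30 and CEBPG by 1.51 ± 0.06, whereas the serine synthesis gene PSPH was lower at -0.95 ± 0.04.

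A list was made of genes linked to the signals that receptor-positive mammary cells send their neighbours under progesterone. Of its 12 tested members 4 rose and 2 fell, with a median of -0.077. Not all of them encode such a signal: CCND1 is among the 4 that rose and the factor ELF5 among the 2 that fell. Among all genes tested 27.5% rose and 30.6% fell. WNT5A, at a shared locus, had the largest change of the list and was lower at -2.58 ± 0.49, whereas WNT4 rose by 0.82 ± 0.09 and WNT7B by 1.23 ± 0.06. ELF5, a factor of the milk-producing lineage, held 2113, 2244 and 2139 scaled fragments with R5020 and IFN against 4391, 4434 and 4494 with EtOH and IFN (-1.04 ± 0.03), and the groups did not overlap. The metallothionein genes MT2A and MT1X rose by 1.10 ± 0.16 and 2.00 ± 0.42, and MT1F did not pass the test at 0.60 ± 0.31. Of 6 tested markers of other cell types none was called higher (1 at an unadjusted p under 0.05 in limma) and 3 were called lower. Genes called lower made up 30.6% of all genes tested.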
